A study of Capra hircus and Bos taurus with 7 samples.

Results

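The miR-2284 and miR-2285 family is a group of microRNAs (miRNAs) known from cattle and other ruminants, with many near-identical members. The members analysed here are all rows of the deposited miRNA tables whose name starts with bta-miR-2284 or bta-miR-2285, with any letter and arm. These are 59 of 364 names, 17 of them miR-2284 and 42 miR-2285. Small RNA was sequenced from extracellular vesicles, the membrane-bound particles that cells release, which had been separated by size exclusion chromatography from milk powders dissolved in warm water. Of the 7 libraries, 3 came from whole goat (Capra hircus) milk powder (A, B and C), 3 from skimmed goat milk powder (A, B and C) and 1 from a commercial bovine (Bos taurus) powder. The labels give no animal, age, lot or treatment for any powder. They do not say whether the letters mark separate packs or repeat isolations, so a p-value here reflects only how far these libraries differ among themselves, which may be technical.

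A miRNA guides the silencing machinery to mRNAs that match its seed, the stretch near its 5′ end, and lowers their output. Members of a family with the same seed share many of their target mRNAs. The miR-2284 and miR-2285 genes lie scattered over the ruminant genome in many copies, and the targets of most members are not established. Near-identical mature sequences also mean that a short read may match several names, so a value for a single letter of this family is uncertain.

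The goat libraries held 6561887 to 11963849 miRNA reads and the bovine library 5675489. No 2 libraries of a powder agreed within sampling noise (chi-square of 507 to 1670 for each degree of freedom), so none was a second deposit of another; whether they are separate preparations is not shown by this. Milk and mammary epithelial miRNAs fixed for a check of the tissue (miR-148a, miR-200c, miR-30a-5p, miR-21-5p, miR-141 and miR-375) summed to 201260 to 281497 counts-per-million (CPM) in the goat libraries and 239428 CPM in the bovine library. All 6 had at least 10 reads in every library. A leukocyte list (miR-223, miR-150 and miR-142-5p) summed to 1332 to 1548 CPM in whole, 1617 to 1972 CPM in skimmed and 97.2 CPM in bovine powder, with miR-150 at 0 in 3 libraries. Erythroid miR-486 stood at 23.6 to 72.8 CPM in whole, 15.6 to 38.6 in skimmed and 0.176 in bovine powder. Muscle miR-1 and liver miR-122 together reached 0.457 to 27.1 CPM in whole, 37.5 to 119.8 in skimmed and 0.352 in bovine powder, with miR-122 at 0 in 3 libraries. The other fixed names (miR-451, miR-144, miR-133a and miR-206) were not found under those exact names among the 364, so the erythroid check rests on 1 name.

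The family was a minor part of the vesicle miRNA of goat powder. Its summed level was 134.3, 182.2 and 154.4 CPM in whole A, B and C, and 248.4, 302.8 and 151.5 CPM in skimmed A, B and C. Skimmed A and B stood above all whole libraries, while skimmed C stood within their range. The whole powder averaged 157.0 ± 24.0 CPM and the skimmed powder 234.2 ± 76.6 CPM (SD, n = 3 each), a ratio of 1.49. No p is given for this sum, because the members were chosen with results of these libraries known. In the bovine library the sum was 2008 CPM (exact 95% Poisson interval 1971 to 2045), or 0.201% of its miRNA reads. That is 10.3 times the goat mean of 195.6 ± 66.1 CPM (SD, n = 6) and 6.63 times the highest goat library. The ratio was 15.5 on TMM-scaled library sizes and 2.74 without the single name miR-2285t. Such intervals cover counting error only, since amplified reads with no molecular identifier do not count molecules.

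**Figure D1:**
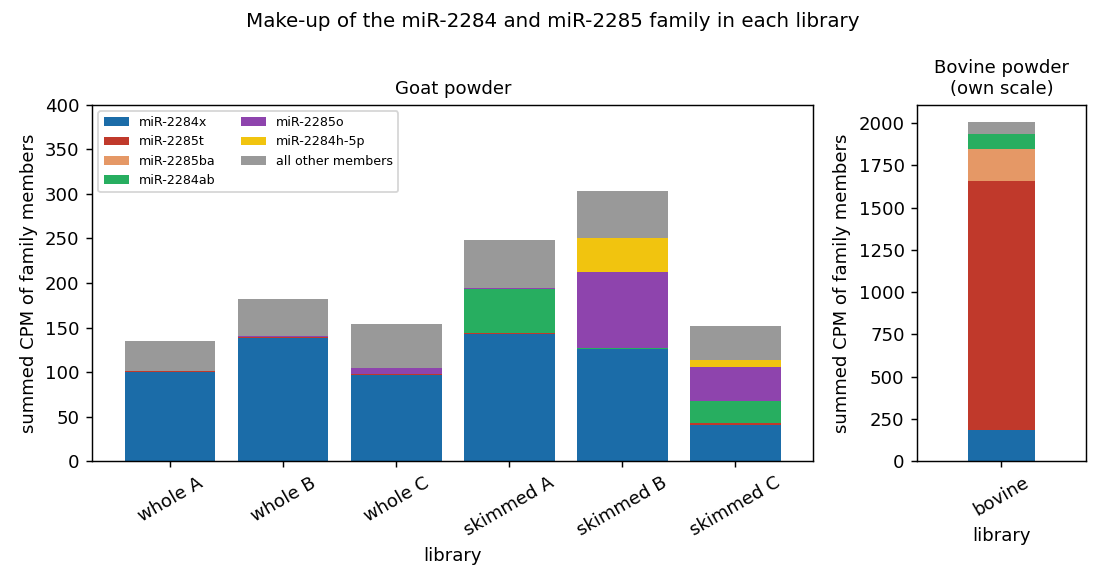
Summed CPM of the family in each library, stacked by member, with the 6 goat libraries at the left and the bovine library at the right on its own scale. Blue miR-2284x is the lowest layer of every goat bar (41.2 to 142.2 CPM), and red miR-2285t is most of the bovine bar (1475 of 2008 CPM).

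The name groups had different weights in the goat and bovine libraries. Names of miR-2284 held 61.3% to 77.3% of the family's reads in the goat libraries and 13.8% in the bovine library. Their summed level was 92.8 to 192.0 CPM in goat and 277.3 CPM in bovine powder. Names of miR-2285 summed to 33.1 to 114.4 CPM in goat and 1730 CPM in bovine powder, so that most of the gap between the species lay in miR-2285. With 1 bovine library, species, product and library cannot be told apart.

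Few members were seen in any depth. Of the 59 names, 25 had at least 10 estimated reads in at least 1 library, 7 peaked at 1 to under 10 reads, and 27 never reached 1 read. Among the 305 other names, 282 reached 10 reads and 12 never reached 1. Between 12 and 17 members had at least 1 read in a goat library, and 8 had in the bovine library. In the bovine library the members fell into 2 tiers, with 6 at 100 reads or more, 0 between 10 and 100, and 2 between 1 and 10. A count of 0 allows up to 3 reads, which is 0.251 to 0.457 CPM in a goat library and 0.529 CPM in the bovine library, for counting error only.

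**Figure D2:**
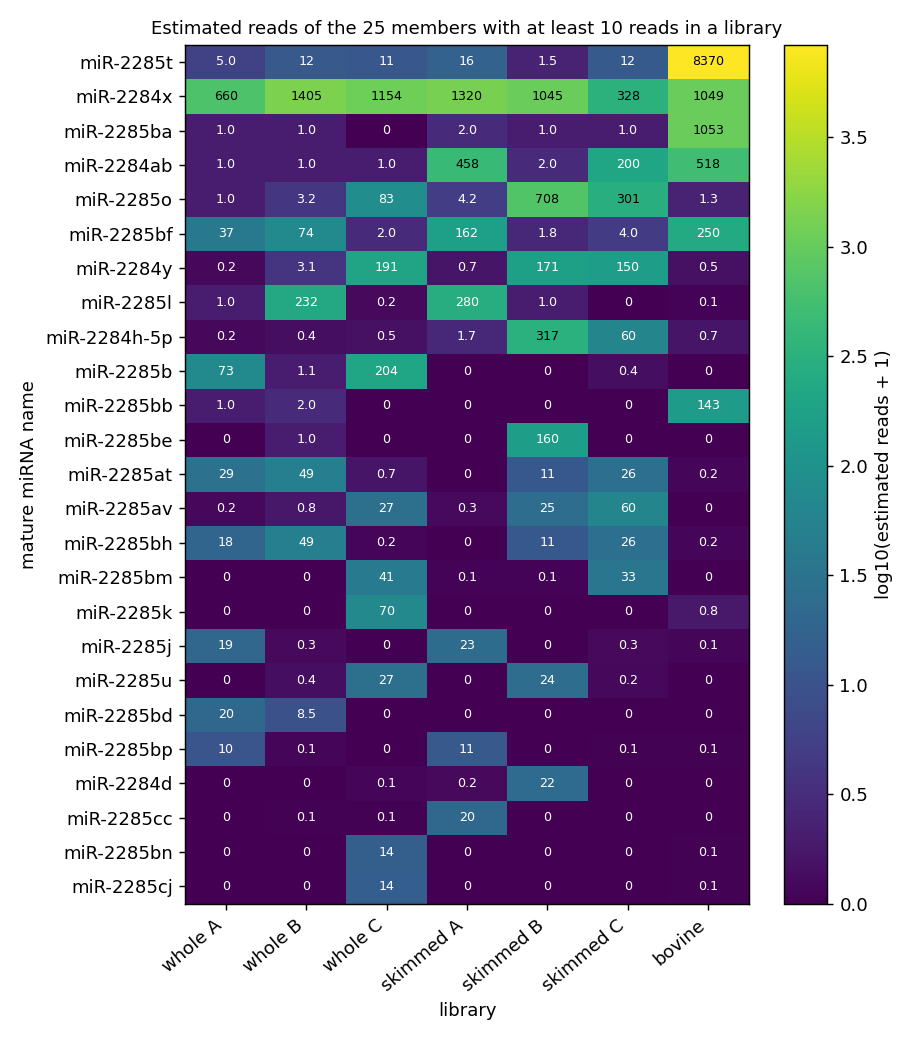
Estimated reads of the 25 members with at least 10 reads in a library (rows, in order of mean CPM over the 7 libraries) in each library (columns), coloured on a log10(reads + 1) scale with rounded reads printed in the cells. The row of miR-2284x is filled in all 7 libraries, the row of miR-2285t reaches 8370 in the bovine library, and most other rows are filled in a few libraries and near 0 in the rest.

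The member present throughout was miR-2284x. It had 659.5, 1405 and 1154 reads in whole A, B and C, 1320, 1045 and 328 in skimmed A, B and C, and 1049 in the bovine library. In CPM these were 100.5, 138.5 and 96.5 in whole, 142.2, 126.1 and 41.2 in skimmed and 184.9 in bovine powder (95% Poisson interval 173.8 to 196.4). The goat groups overlapped, and skimmed C stood lowest of all 7. It ranked from 113 to 152 among the 364 names in goat libraries and 93 in the bovine library. This was the leading member of all 6 goat libraries, and held 62.5% to 76.0% of family reads in the whole libraries. Its share was 57.2%, 41.7% and 27.2% in skimmed A, B and C. It was also the 1 member of the 59 with at least 10 reads in every goat library, against 147 of the 305 other names. The bovine value was 1.72 times the goat mean of 107.5 ± 37.6 CPM (SD, n = 6).

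Second among the goat libraries by mean level was miR-2285o. Its reads were 1, 3.15 and 82.9 in whole A, B and C, 4.2, 708.2 and 300.6 in skimmed A, B and C, and 1.33 in the bovine library. It was thus high in skimmed B and C, lower in whole C and near absent elsewhere. A related pattern was seen for miR-2284y, with 0.2, 3.09 and 191.2 reads in whole, 0.667, 171.3 and 150.1 in skimmed and 0.5 in bovine powder. The row of miR-2285av followed, with 0.2, 0.785 and 27.3 reads in whole, 0.267, 24.6 and 60.02 in skimmed and 0 in bovine powder. These 3 names reached 10 reads in the same 3 libraries, whole C, skimmed B and skimmed C, and in no other.

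Their values were tied in arithmetic as well. In whole C the reads of miR-2284y, miR-2285av, miR-2285u and miR-2285o were 2485, 355, 355 and 1078 thirteenths of a read, so that miR-2284y stood at 7 times and miR-2285o at 3.04 times the value of miR-2285u. In skimmed B miR-2284y was at 7.05 and miR-2285av at 1.01 times the value of miR-2285u (24.3 reads), while miR-2285o stood at 29.1 times. Skimmed C differed, with 60.02 reads for miR-2285av and 0.231 for miR-2285u. Summed, the 4 names gave 0.213, 0.731 and 27.5 CPM in whole A, B and C, 0.553, 112.1 and 64.2 CPM in skimmed A, B and C, and 0.323 CPM in bovine powder. The sum of the 4 names was therefore all but absent in 3 goat libraries and led by skimmed B and C. In CPM the rows of miR-2284y, miR-2285av and miR-2285o singly did the same, but that of miR-2285u did not. Its reads were 0, 0.385 and 27.3 in whole, 0, 24.3 and 0.231 in skimmed and 0 in bovine powder. It stood at 2.28 CPM in whole C, 2.93 in skimmed B and 0.029 in skimmed C.

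Other pairs of names had equal or close values, or only reached 10 reads in the same libraries. The rows miR-2285at and miR-2285bh were equal (within 1e-06) in whole B at 48.9 reads and in skimmed B at 10.9 reads, and close in skimmed C at 25.7 and 25.8. Whole A held 29.1 and 18.2 of them, whole C 0.668 and 0.168, skimmed A 0 of both, and bovine powder 0.168 of both. The names miR-2285j and miR-2285bp reached 10 reads only in whole A (18.6 and 10 reads) and skimmed A (23.2 and 11.5). In whole C alone stood miR-2285bn and miR-2285cj, at 14.3 and 14.1 reads. Equal fractional values of at least 10 reads were found for 0 pairs of a member with a name outside the family.

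Fractional values were common across the family. Of its 185 values above 0, 30 were whole numbers (16.2%), against 43.1% of the 1715 such values of other names. At 10 reads or more the shares were 4 of 59 (6.78%) and 493 of 1324 (37.2%). Values between 0 and 1 read made up 46.5% of the family's values above 0 and 6.12% of those of other names. A value under 1 read cannot stand for a whole read of its own name, so such values are not read as presence here.

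Apart from miR-2284x, members came and went between goat libraries. Of the 23 members with at least 10 reads in a goat library, 7 reached that number in 1 library, 8 in 2, 4 in 3, 3 in 4 and 1 in all 6. Of the 270 other names that reached 10 reads in a goat library, 147 (54.4%) did so in all 6. The family's rows are low, however, and low rows of other names behaved alike: among names whose highest goat value lay between 100 and 1405 reads, 8 of 9 members (88.9%) and 105 of 122 other names (86.1%) had at most 10 reads in another goat library. The pattern is thus not shown to be particular to the family. This comparison covers only the 9 members at that level, and members under 100 reads were not compared at like level.

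**Figure D3:**
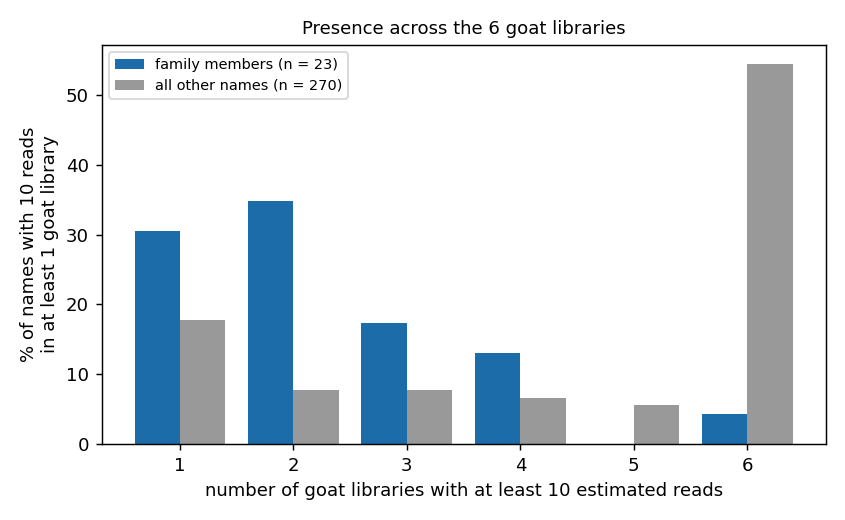
Number of goat libraries (x axis, 1 to 6) in which a name had at least 10 estimated reads, as a percentage of the names that did so in at least 1 (y axis), for 23 family members (blue) and 270 other names (grey). Members lie mostly at 1 or 2 libraries (7 and 8 names), and other names mostly at all 6 (147 names); the family's rows are lower in level than those of the other names.

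Of the 23 members with 10 reads in a goat library, 5 reached 10 reads in skimmed libraries only, 5 in whole libraries only and 13 in both. The skimmed group held miR-2284ab, miR-2284h-5p, miR-2285be, miR-2285cc and miR-2284d. The row of miR-2284ab had 1 read in each whole library and 458.3, 2 and 199.5 reads in skimmed A, B and C, with 518.3 in the bovine library. It was high in skimmed A and C and near absent in skimmed B. The row of miR-2284h-5p, from the 5′ arm of its hairpin, was at 0.2, 0.4 and 0.5 reads in whole A, B and C, at 1.7, 317.1 and 60.3 in the skimmed libraries and at 0.667 in bovine powder. For miR-2285be nearly all reads lay in skimmed B, with 159.5 reads there, 1 in whole B and 0 in the other 5 libraries. Within the skimmed powder each of these 3 rows also had a library at 2 reads or fewer.

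The whole group held miR-2285b, miR-2285k, miR-2285bd and the paired rows miR-2285bn and miR-2285cj. The row of miR-2285b had 72.8, 1.09 and 204.2 reads in whole A, B and C and 0, 0 and 0.4 in skimmed, with 0 in bovine powder. It was high in whole A and C and close to the skimmed level in whole B. The row of miR-2285k had 70.3 reads in whole C, 0 in the other goat libraries and 0.833 in bovine powder. That of miR-2285bd had 20 and 8.5 reads in whole A and B and 0 in the other 5 libraries. High in 1 library of each powder was miR-2285l, with 1, 232.4 and 0.25 reads in whole, 280.1, 1 and 0 in skimmed and 0.1 in bovine powder. The same held for miR-2285bm, with 40.7 reads in whole C, 33.2 in skimmed C and at most 0.111 elsewhere. The rows of miR-2285cc (19.8 reads) and miR-2284d (22.3) were high in skimmed A and skimmed B, respectively, and at most 0.25 elsewhere.

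In the comparison of skimmed with whole goat powder 0 family members passed the quasi-likelihood test of edgeR at an adjusted p of 0.05 (Benjamini-Hochberg, over all miRNAs tested). The filter on low counts let 8 of the 59 members through, and none of the 8 had an unadjusted p under 0.05. The fit called 1 of 209 miRNAs (0.478%), and 22 (10.5%) had an unadjusted p under 0.05. The median log2 fold change was 0.51 for the 8 members and 0.03 for all 209, with a median SE of 2.20 and 0.69. Groups did not overlap in CPM for 0 of the 8 members, against 42 of the 209 miRNAs (20.1%). Of the 15 members that reached 10 reads in a goat library but not the test, 3 had groups that did not overlap. In skimmed miR-2284ab and miR-2284h-5p were higher and miR-2285b lower, in part by differences of about 1 read. The share among other names outside the test was not computed, so these 3 are not read as a result about the family. Limma-voom called 0 members (1 of 209 miRNAs, 0.478%).

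Of the tested members miR-2285o had the lowest p, at a log2 fold change (skimmed minus whole) of 4.09 ± 2.26 (SE; edgeR adjusted p = 0.57). Its 95% interval ran from -1.09 to 9.28, and its value from 2.97 without skimmed B to 7.52 without whole C. For miR-2284x the log2 fold change was -0.00 ± 0.80 (SE), with a 95% interval of -1.83 to 1.82. On a linear scale this interval runs from 0.281-fold to 3.54-fold, so a difference of that size was not detectable with these libraries. The sign of its change turned without whole B (0.14) and without skimmed C (0.37). The other 6 had log2 fold changes from -0.94 for miR-2285at to 2.16 for miR-2285av, with adjusted p of 0.92 to 0.96. Without whole C the value was 6.39 for miR-2284y and 5.80 for miR-2285av, neither past the threshold (edgeR adjusted p = 0.55 and 0.69). With all libraries miR-2284y lay at 1.31, miR-2285bf at 0.64, miR-2285t at 0.38 and miR-2285bh at -0.64.

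**Figure D4:**
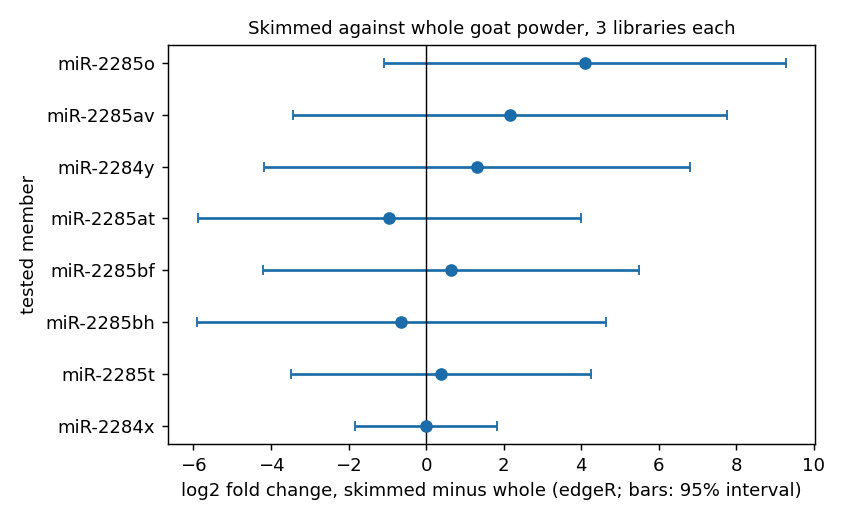
Log2 fold change of skimmed minus whole goat powder for the 8 tested members, from edgeR on 3 libraries against 3 (points, with 95% intervals as bars). All 8 intervals span 0, and the narrowest is that of miR-2284x (-1.83 to 1.82).

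DESeq2's Wald test, which applies another filter, called 2 members, miR-2284ab and miR-2284h-5p, both higher in skimmed powder. It called 10 of 243 miRNAs as higher in skimmed (4.12%) and 22 in either direction (9.05%), and gave an adjusted p to 23 members. The log2 fold change was 7.89 ± 2.10 (SE; adjusted p = 0.0055) for miR-2284ab and 9.65 ± 3.13 (adjusted p = 0.029) for miR-2284h-5p. The first call was lost without skimmed A, at a log2 fold change of 6.89 (DESeq2 adjusted p = 0.19). The second was lost without whole C (9.45, adjusted p = 0.072 in DESeq2), skimmed B (7.66, 0.33) or skimmed C (9.96, 0.071). These fold changes are taken against at most 1 read in each whole library. Their size in the fits with a library left out is therefore no further evidence for a difference. With edgeR and no filter on low counts the log2 fold changes were 7.67 and 10.1, both with an adjusted p of 0.36.

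Without miR-2284x the rest of the family summed to 33.8, 43.7 and 57.9 CPM in whole A, B and C and to 106.2, 176.6 and 110.3 CPM in skimmed A, B and C. All 3 skimmed libraries stood above all 3 whole libraries. Means were 45.1 ± 12.1 CPM in whole and 131.1 ± 39.5 CPM in skimmed (SD, n = 3 each), a ratio of 2.90. Much of this lay in 3 names: without miR-2284ab, miR-2284h-5p and miR-2285o as well, the ratio was 1.17 and the groups overlapped. The sums were then 33.5, 43.2 and 50.9 CPM in whole and 56.2, 52.6 and 39.8 CPM in skimmed A, B and C. These 3 names were picked with their values known. The leading names differed between the skimmed libraries in part: miR-2284ab and miR-2285l in skimmed A, miR-2285o and miR-2284h-5p in skimmed B, and miR-2285o and miR-2284ab in skimmed C. Members with at least 100 reads numbered 1, 2 and 3 in whole and 4, 5 and 4 in skimmed. Other names with as many numbered 188, 189 and 191 in whole and 189, 187 and 185 in skimmed. At lower cutoffs the members' counts overlapped, at 8, 6 and 11 in whole and 8, 10 and 10 in skimmed for 10 reads. For 1 read they were 16, 16 and 15 in whole and 12, 17 and 15 in skimmed. The leukocyte markers did not go one way. Their sum was higher in every skimmed than in every whole library through miR-223 (1154 to 1211 CPM in whole, 1503 to 1722 in skimmed), while miR-150 was lower in every skimmed library (7.30 to 17.8 and 0 to 0.121 CPM) and miR-142-5p overlapped (168.0 to 319.2 and 114.7 to 283.2 CPM). The sum of miR-1 and miR-122 was higher in every skimmed library through miR-1 (0.305 to 27.1 CPM in whole, 37.2 to 119.8 in skimmed). The groups overlapped for miR-122 (0 to 0.152 CPM in whole, 0 to 49.9 in skimmed). The part of these markers in the family's values was not tested. In such bulk samples fewer vesicles of a kind and less RNA per vesicle cannot be told apart.

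By difference in CPM the member farthest above the goat libraries in bovine powder was miR-2285t. This name had 8370 reads in the bovine library, while whole A, B and C had 5, 11.5 and 10.7 reads and skimmed A, B and C had 16, 1.5 and 12. In CPM that is 1475 (95% Poisson interval 1443 to 1507) against 0.181 to 1.72 in the goat libraries. The bovine level was 1427 times the goat mean of 1.03 ± 0.55 CPM (SD, n = 6). In the bovine library miR-2285t ranked 47 of 364 names and held 73.5% of the family's reads, while in goat libraries it ranked 201 to 218.

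A pair of further names were close to bovine-only. The row of miR-2285ba had 1053 reads in the bovine library, 1, 1 and 0 in whole and 2, 1 and 1 in skimmed powder, a ratio of 1676 to the 6 pooled goat reads (exact 95% interval 767 to 4577). By the same pooled ratio miR-2285t stood at 1411 (1081 to 1853), and the intervals overlap. The bovine level of miR-2285ba, 185.6 CPM (174.5 to 197.1), and that of miR-2284x, 184.9 CPM, did not differ beyond counting error. The row of miR-2285bb had 142.8 reads in the bovine library, 1, 2 and 0 in whole and 0 in each skimmed library, a ratio of 454 (153 to 2233). Both goat totals are close to the floor of a few reads.

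Members shared between bovine and some goat libraries were miR-2285bf and miR-2284ab. The row of miR-2285bf had 249.8 reads in the bovine library, 37.5, 74.3 and 1.98 in whole and 162.2, 1.84 and 4.03 in skimmed powder. At 44.0 CPM the bovine value was 8.41 times the goat mean and 2.52 times the highest goat library, skimmed A. For miR-2284ab the bovine value of 91.3 CPM was 7.30 times the goat mean and 1.85 times skimmed A. By contrast miR-2285o, miR-2284y, miR-2284h-5p, miR-2285l, miR-2285b and miR-2285be, each with at least 100 reads in a goat library, had at most 1.33 reads in the bovine library. Each of these 6 also had at most 1 read in at least 1 goat library, so their near absence from the bovine library lay within the range of the goat libraries.

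**Figure D5:**
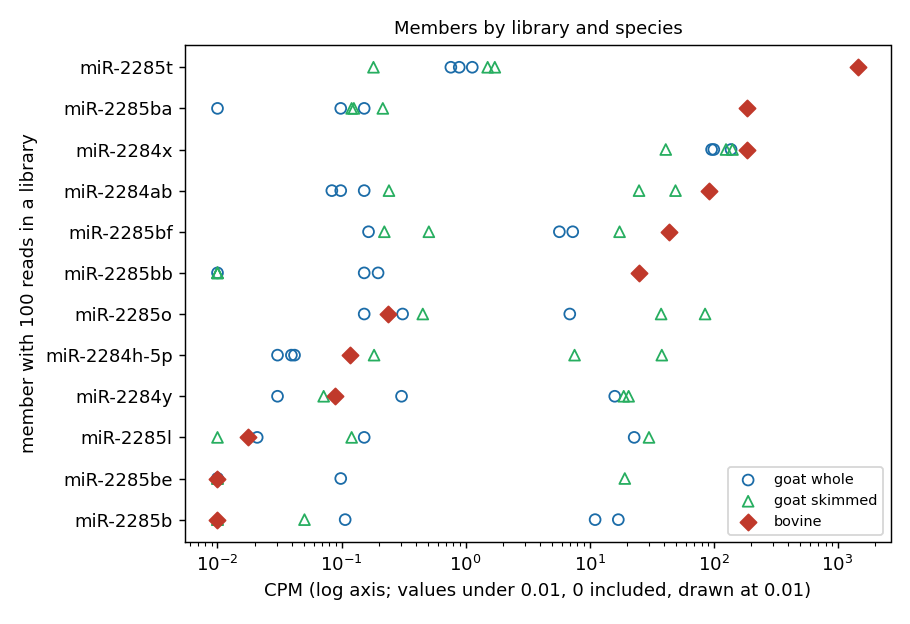
CPM on a log axis (values under 0.01 drawn at 0.01) of the 12 members with at least 100 reads in a library, in whole goat (circles), skimmed goat (triangles) and bovine libraries (diamonds). The bovine diamond stands far above all goat symbols for miR-2285t and miR-2285ba, next to them for miR-2284x, and among the low goat symbols for 6 members.

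As a count, 5 of the 12 members with at least 100 reads in a library were at least 4-fold above the goat mean in the bovine library (miR-2285t, miR-2285ba, miR-2285bb, miR-2285bf and miR-2284ab), against 24 of all 279 such names (8.60%). At least 4-fold below the goat mean were 6 of the 12 and 164 of the 279 (58.8%). The bovine value lay above all goat libraries for 6 of the 12 and 53 of the 279 (19.0%), and below all goat libraries for 0 of the 12 and 99 of the 279 (35.5%). With 1 bovine library these counts carry no test. They also follow in part from the choice of names by reads in any library. Of the members above, miR-2285t, miR-2285ba and miR-2285bb reached 100 reads in the bovine library only, with goat maxima of 16, 2 and 2 reads. The 6 members below reached 100 reads in goat libraries only. Another 28 names, from number series in which many miRNAs of cattle are named, gave 1333 to 2400 CPM in goat and 3576 CPM in bovine powder. Without the abundant miR-2898 and miR-2478 they gave 14.2 to 125.9 CPM in goat and 712.9 CPM in bovine powder, a ratio of 10.1 to the goat mean.

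The reads of all 7 libraries carry bovine names, and the sources used here do not say how goat reads were matched to them. The RefSeq table of goat genes used for names (assembly ARS1.2) lists 5 genes with symbols from MIR2284A to MIR2284E and 0 with a symbol starting MIR2285. A letter shared by a goat gene and a bovine name does not show that their sequences match. The deposited rows miR-2284a, miR-2284b and miR-2284c, whose letters recur there, never reached 1 read, and miR-2284d reached 22.3 reads in skimmed B.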

How the data were processed

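The deposited tables hold a column of counts, per the file headers, for the same 364 bovine names of mature miRNAs. Many values are fractions, so the deposited values were read as estimated counts that were not normalized. Libraries were size-selected on gel and sequenced as single-end reads of 50 bases, per the labels' protocols. The sources used here do not name the aligner, counter, miRNA reference or genome build, so no coordinates are given, and mature sequences and seeds were not used here.

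CPM were computed over all 364 names, and members were also summed. For tests, estimated counts were rounded and the 6 goat libraries fitted over all names with edgeR 4.0.16 in R 4.3.3 (default filter, TMM, quasi-likelihood test, Benjamini-Hochberg, adjusted p of 0.05; SE as the log2 fold change divided by the square root of F). The bovine library had no test; its intervals are exact (Poisson, or binomial for pooled ratios). Only the edgeR fit with TMM was first tested on simulated data, drawn for names that had passed its filter. DESeq2 1.42.0, limma 3.58.1 voom, other scalings, no filter, a block and left-out libraries were alternatives. Every member with at least 10 reads in a library is described, singly or with names of a like pattern. Members and lists were chosen with earlier results of these data known.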

Additional observations from a re-analysis of the deposited data

How the results depend on the processing

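The count of all miRNAs called between skimmed and whole goat powder was 1 and fell to 0 with DESeq2 size factors, with library totals and with the letters as a replicate block; it was 2 with no filter on low counts and 22 with DESeq2's Wald test, and 0 to 1 with a library left out. The count of family members called was 0 under all of these except DESeq2's Wald test, which called 2. The cause was not tested. The letters were not taken as pairs: same-letter deviations correlated at 0.20, 0.14 and 0.06 for A, B and C over 209 miRNAs, although each library correlated best with its own letter. Of 95 alternative log2 fold changes of the 8 tested members, 90 kept their sign, 0 passed the threshold and the lowest adjusted p was 0.19 (miR-2285o, DESeq2). The sign turned for miR-2285bf with limma-voom (-0.27), and with a library left out for miR-2285bf (-3.45 to 1.21), miR-2284x (-0.38 to 0.37) and miR-2285bh (-1.83 to 0.19). With a library left out miR-2285o lay at 2.97 to 7.52, miR-2284y at 0.71 to 6.39 and miR-2285av at 0.95 to 5.80.

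The skimmed to whole ratio of the family sum, 1.49, lay between 1.27 and 1.76 with a library left out. It became 2.90 without miR-2284x, and 1.17 also without miR-2284ab, miR-2284h-5p and miR-2285o. The bovine ratio of 10.3 became 15.5 on TMM library sizes and 2.74 without miR-2285t, and lay between 9.66 and 11.5 with a goat library left out. The mean number of members per goat library was 15.2 at 1 read, 8.83 at 10 reads and 14.6 thinned to the smallest library. The cause of the near-absence of members from single libraries was not tested.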
